A study of Mus musculus with 23 samples.

Results

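Ddx3x, Smarca4, Kmt2c, Kmt2d, Kdm6a, Bcor, Ldb1, Crebbp and Ctnnb1 are the mouse counterparts of genes that are recurrently mutated in human medulloblastoma, a malignant tumour of the cerebellum. They were followed here across mouse models of that tumour and the normal tissue it is set against. Members were taken by name, as every probe set (a group of short probes that reads 1 stretch of transcript) of the array annotated to 1 of these 9 genes alone, which gave 26 of 45101 probe sets and 9 of the 18194 genes measured. Most of the 9 act on chromatin, whereas Ddx3x is an RNA helicase and Ctnnb1 carries the Wnt signal, so the set is a list of mutated genes rather than a single machinery. Values are log2 intensities of the Affymetrix mouse whole-genome expression array, and 1 unit is a doubling. They allow a gene to be compared between arrays but not with another gene.

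There were 23 arrays, 1 for each tumour or normal sample. GTML tumours (n = 4) arose with overexpression of the oncogene Mycn. The CRISPR-Ptch1 tumours (n = 3) carried a somatic disruption of Ptch1, the receptor that restrains Sonic hedgehog signalling; 2 were made by electroporating the cerebellum of embryos in utero (EP) and 1 by transfecting the cerebellum of a newborn mouse (TF). MERP tumours (n = 5) lost Ptch1 after birth in cells expressing Math1 (Atoh1), the transcription factor that marks granule neuron precursors, and Ptch1+/- tumours (n = 4) came from mice with a germline disruption of 1 Ptch1 allele. Normal samples were granule neuron precursors (GNPs, n = 3) isolated between postnatal days 4 and 7 and whole adult cerebellum (n = 4). All samples are labelled CD1, while the study's methods name C57BL/6N for transfected mice and describe TF tumours in Trp53-null animals. The labels give no Trp53 genotype, sex, age of tumour mice or array run, so a run and a group cannot be told apart. Nothing states that the samples of a group came from separate litters, so each p-value speaks for the spread among the arrays at hand and no more.

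Chromatin regulators of this kind work in large complexes. BAF complexes, with Smarca4 as their motor, slide and evict nucleosomes, and the COMPASS-like complexes built on Kmt2c or Kmt2d methylate histone H3 at enhancers and contain the H3 demethylase Kdm6a. Bcor assembles a variant Polycomb complex that ubiquitylates histone H2A, Crebbp acetylates histones at active enhancers, and Ldb1 bridges LIM-domain proteins to loop enhancers to promoters. In the cerebellum, granule neuron precursors divide under Sonic hedgehog before they mature into granule neurons, and that precursor is the cell from which Sonic hedgehog medulloblastoma is known to arise.

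The samples were first set against their labels. A list of 9 precursor genes, Atoh1 and Gli1 among them, averaged 7.58 to 8.22 on GTML arrays, 11.39 to 11.77 on CRISPR-Ptch1, 11.50 to 11.77 on MERP, 11.70 to 11.83 on Ptch1+/- and 11.45 to 11.50 on GNP arrays, against 7.85 to 8.08 on adult arrays. GTML tumours thus read the list at the adult level, with Atoh1 at 5.41 ± 0.11 (SD) against 4.47 ± 0.19 in adult cerebellum. Proliferation genes (7 of 8 measured) averaged 11.70 to 12.19 over all tumours and 12.08 to 12.10 in GNPs, against 5.98 to 6.79 in adult cerebellum. Markers of Purkinje cells (4 of 6 measured) averaged 4.87 to 7.04 in GTML, 8.62 to 11.32 in CRISPR-Ptch1, 5.65 to 6.76 in MERP, 4.97 to 5.61 in Ptch1+/- tumours and 7.65 to 7.82 in GNPs, against 13.87 to 14.02 in adult cerebellum. The 8 mature granule neuron genes reached 9.63 and 10.86 in the EP tumours and 8.38 in the TF tumour, against 12.37 to 12.48 in adult cerebellum and 7.47 to 8.21 in the other tumours and GNPs. Microglial markers averaged 8.90 to 10.17 in CRISPR-Ptch1 tumours against 7.55 to 7.66 in adult cerebellum, and the endothelial list averaged 10.18 to 10.83 in GNPs against 8.23 to 8.40. Mouse Mycn read 7.83 ± 0.54 in GTML tumours and 6.88 ± 0.26 in adult cerebellum; whether its probes read the transgene is not given in the sources used here. Ptch1 averaged 12.98 ± 0.17 in CRISPR-Ptch1, 13.04 ± 0.19 in MERP and 11.85 ± 0.31 in Ptch1+/- tumours against 11.95 ± 0.05 in adult cerebellum, and since these probes need not lie in the disrupted exon this checks no label. In bulk samples like these, fewer cells of a type and less RNA per cell cannot be told apart, and the part of cell makeup in the differences below was not tested.

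**Figure D1:**
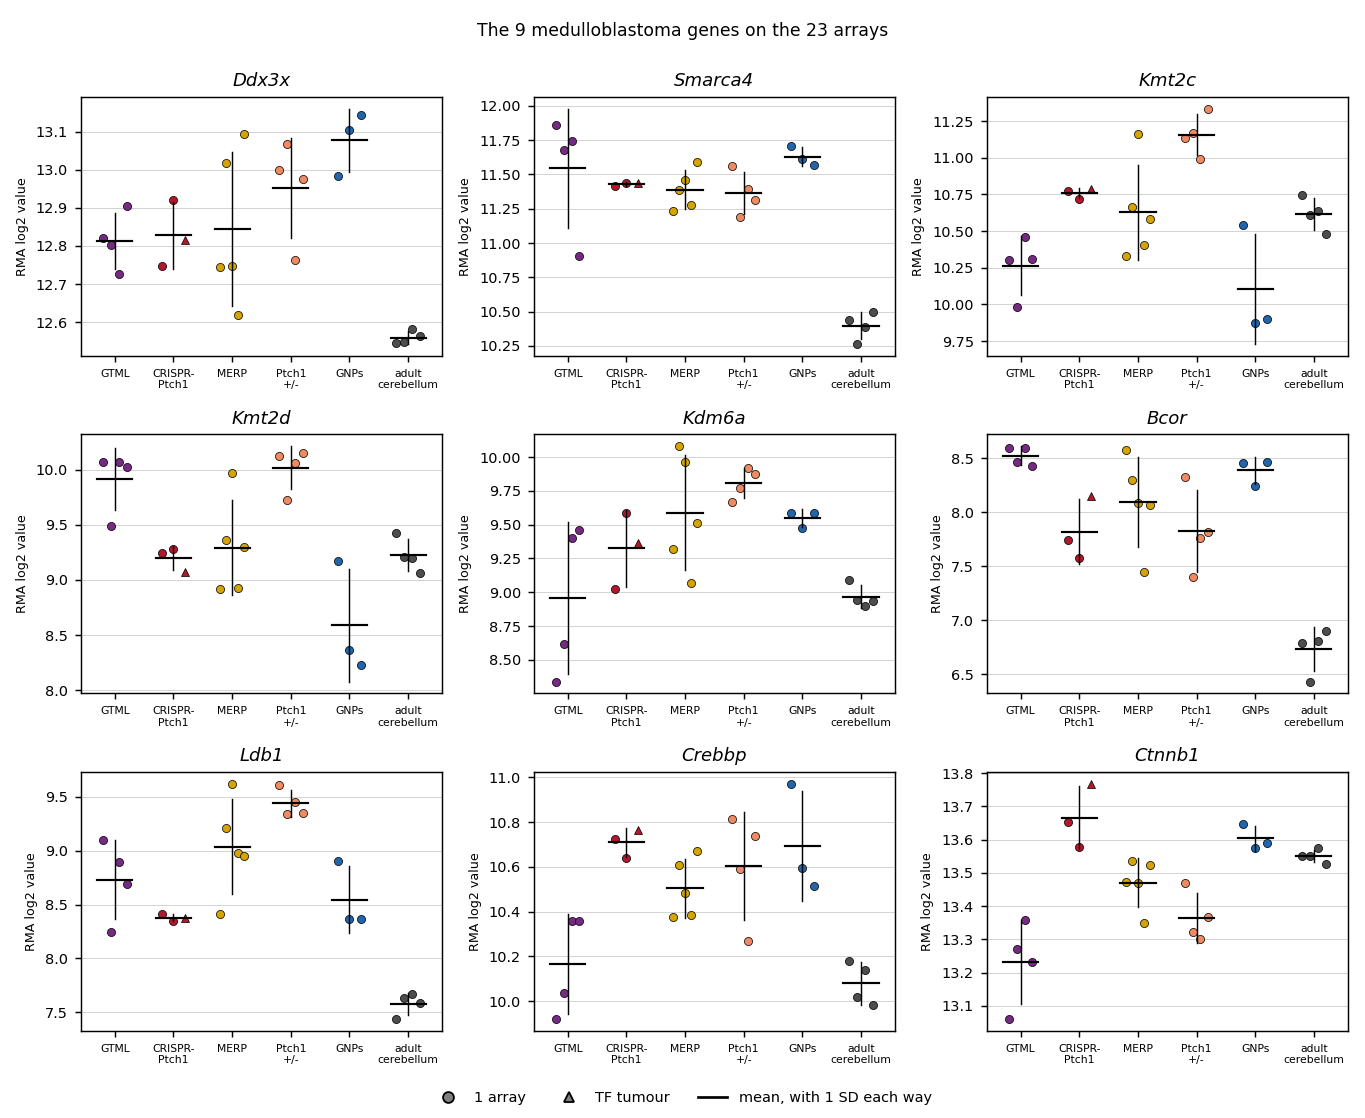
Level of each of the 9 genes (RMA log2 value, y axis) on each of the 23 arrays, read by the brightest probe set of the gene. Circles are arrays, the triangle is the TF tumour, and bars are group means with 1 SD each way. Smarca4, Bcor, Ldb1 and, by less, Ddx3x lie above all 4 adult arrays in every other group. How many of all 18194 genes do so was not counted.

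Read by the brightest probe set of each gene, the 9 genes moved mostly one way against adult cerebellum. Those called higher (limma, adjusted p under 0.05 over all 18194 genes) were 5 of 9 in GTML tumours, where 27.3% of all genes were called higher, and 5 of 9 in CRISPR-Ptch1 tumours (26.4%). They were 6 of 9 in MERP tumours (30.8%), 8 of 9 in Ptch1+/- tumours (22.4%) and 5 of 9 in GNPs (29.1%). Those called lower were 1 of 9 in GTML tumours (27.9% of all genes), 2 of 9 in GNPs (21%) and none in CRISPR-Ptch1, MERP and Ptch1+/- tumours, where 21.1%, 24.9% and 30.8% of all genes were called lower. At an unadjusted p under 0.05, Ctnnb1 in Ptch1+/- tumours and Kmt2c in GTML tumours were also lower and Kdm6a in GNPs was also higher. Over all 26 member probe sets, 8 were called higher and 3 lower in GTML, 8 and 0 in CRISPR-Ptch1 and 10 and 4 in MERP tumours. In Ptch1+/- tumours 17 were called higher and 2 lower, and in GNPs 8 and 6. Of all 34958 probe sets, 43.8% to 52.6% were called in these comparisons, in either direction. The same 4 adult arrays served all 5 comparisons. Since the median gene level differed between arrays by up to 0.67, each direction was also read after centring every array on that median. It is said below where this turned a member difference called on either scale. Turns of differences called on neither scale are not all given. Smarca4, Bcor and Ldb1 were called higher in all 5 and are described first, and Ddx3x was called higher in all 5 by much less.

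Smarca4 (Brg1), the ATPase motor of BAF complexes, was about 2-fold higher in every tumour group and in GNPs than in adult cerebellum. Its brightest probe set (1426804_at) read 11.86, 11.68, 11.74 and 10.90 in GTML tumours, 11.42 and 11.44 in EP tumours, 11.44 in the TF tumour, and 11.23, 11.38, 11.46, 11.28 and 11.59 in MERP tumours. Ptch1+/- tumours read 11.56, 11.19, 11.39 and 11.32, GNPs 11.71, 11.61 and 11.57, and adult cerebella 10.44, 10.26, 10.39 and 10.50. No adult array reached any other array, and the lowest of the rest was the 4th GTML tumour. The log2 difference from adult cerebellum was 1.15 in GTML (fold 2.22, adjusted p = 8.79e-07) and 1.03 in CRISPR-Ptch1 tumours (fold 2.05, adjusted p = 1.5e-05). It was 0.99 in MERP (fold 1.99, adjusted p = 3.01e-06), 0.97 in Ptch1+/- tumours (fold 1.96, adjusted p = 8.88e-06) and 1.23 in GNPs (fold 2.35, adjusted p = 1.24e-06), with standard errors of 0.14 to 0.16. Between tumours no difference was called. GTML minus the mean of the 3 Ptch1 models was 0.15 (95% interval -0.10 to 0.40). CRISPR-Ptch1 minus MERP was 0.04 (-0.28 to 0.36), CRISPR-Ptch1 minus Ptch1+/- 0.06 (-0.27 to 0.40) and MERP minus Ptch1+/- 0.02 (-0.27 to 0.32). Against GNPs the 4 tumour groups lay at -0.26 to -0.08, and none was called. With centred arrays they lay at -0.14 (CRISPR-Ptch1) to 0.35 (GTML), still without a call. CRISPR-Ptch1 minus MERP then turned to -0.16, CRISPR-Ptch1 minus Ptch1+/- to -0.41 and MERP minus Ptch1+/- to -0.25, none of them called. The second Smarca4 probe set (1426805_at) did not repeat the pattern. It averaged 9.81 in GTML, 8.95 in CRISPR-Ptch1, 8.71 in MERP and 9.38 in Ptch1+/- tumours and 9.17 in GNPs against 8.72 in adult cerebellum. Among 34958 probe sets only its GTML (1.09) and Ptch1+/- (0.66) differences were called.

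The other subunits of BAF complexes, 29 genes, were called higher than in adult cerebellum in 16 (GTML), 18 (CRISPR-Ptch1), 18 (MERP), 18 (Ptch1+/-) and 18 (GNPs) cases, and lower in 7, 4, 8, 8 and 6. Their median log2 difference was 0.54, 0.73, 0.71, 0.70 and 0.70 in the same order, against medians of -0.03 to 0.08 over all genes. Of all genes, 22.4% to 30.8% were called higher and 21% to 30.8% lower in these comparisons. Actl6a (BAF53a), the actin-related subunit of progenitor BAF, was higher by 2.80 in GTML, 2.45 in CRISPR-Ptch1, 2.72 in MERP and 2.56 in Ptch1+/- tumours and 2.81 in GNPs. Bcl11a, a zinc-finger subunit, averaged 10.47 in GTML, 10.61 in CRISPR-Ptch1, 10.25 in MERP and 10.40 in Ptch1+/- tumours and 9.16 in GNPs, against 7.19 in adult cerebellum, and it was called higher than in GNPs in all 4 tumour groups (1.09 to 1.45). Smarca2 (Brm), the alternative ATPase to Smarca4, ran the other way, at 8.58 in GTML, 9.71 to 10.11 in the 3 groups of Ptch1 tumours and 9.66 in GNPs against 10.77 in adult cerebellum, each a called decrease. GTML tumours stood below the mean of the 3 Ptch1 models for Smarca2 (-1.36, adjusted p = 7.6e-06) and for Smarcd3 (BAF60c; -1.72, adjusted p = 0.00017).

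Bcor, the corepressor that anchors the variant Polycomb complex PRC1.1, differed most in GTML tumours and GNPs. Probe set 1429438_at read 8.60, 8.47, 8.60 and 8.43 in GTML tumours, 7.74 and 7.57 in EP tumours, 8.15 in the TF tumour, and 8.58, 8.30, 8.09, 7.44 and 8.07 in MERP tumours. It read 8.33, 7.40, 7.76 and 7.82 in Ptch1+/- tumours and 8.46, 8.24 and 8.46 in GNPs, against 6.79, 6.43, 6.81 and 6.90 in adult cerebella. Adult arrays were again below all others, and the GTML arrays lay above every CRISPR-Ptch1 and Ptch1+/- array. Relative to adult cerebellum Bcor rose 3.46-fold in GTML (log2 1.79, adjusted p = 1.02e-07) and 2.13-fold in CRISPR-Ptch1 tumours (1.09, adjusted p = 2.4e-04). It rose 2.57-fold in MERP (1.36, adjusted p = 2.25e-06), 2.14-fold in Ptch1+/- tumours (1.09, adjusted p = 7.37e-05) and 3.15-fold in GNPs (1.66, adjusted p = 1.23e-06), each with a standard error of 0.19 to 0.22. Bcor was the 1 member higher in GTML tumours than in the mean of the 3 Ptch1 models (0.61 ± 0.16, SE, adjusted p = 0.0047), a comparison in which 20.5% of all genes were called higher. Against GNPs it was lower in Ptch1+/- tumours (-0.56, adjusted p = 0.0439), a call that was lost when any 1 of 6 of the 7 arrays was left out. It was not called in GTML (0.13), CRISPR-Ptch1 (-0.57) or MERP tumours (-0.29). All 3 Bcor probe sets were called higher than in adult cerebellum in all 5 comparisons, and they correlated at r = 0.92 to 0.96 over the 23 arrays.

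Of 10 measured partners of Bcor in PRC1.1 and Polycomb repression, 2 rose in GTML, CRISPR-Ptch1 and MERP tumours and GNPs and 3 in Ptch1+/- tumours relative to adult cerebellum. In turn 6, 2, 3, 4 and 2 fell in GTML, CRISPR-Ptch1, MERP, Ptch1+/- and GNPs. With centred arrays the balance turned in Ptch1+/- tumours (3 up, 2 down), and 4 fell in CRISPR-Ptch1 tumours and in GNPs. As deposited, 27.3%, 26.4%, 30.8%, 22.4% and 29.1% of all genes were called higher in GTML, CRISPR-Ptch1, MERP, Ptch1+/- and GNPs. Called lower were 27.9%, 21.1%, 24.9%, 30.8% and 21%. Rnf2 (Ring1b), the catalytic subunit, was higher by 1.46, 1.40, 1.52, 1.14 and 1.40 in that order, and Kdm2b, which brings PRC1.1 to unmethylated CpG islands, by 0.92, 1.37, 1.27, 1.35 and 0.96. Bcl6, the repressor through which Bcor was first found, averaged 5.94 in GTML, 7.53 in CRISPR-Ptch1, 6.79 in MERP and 6.50 in Ptch1+/- tumours and 5.43 in GNPs against 10.79 in adult cerebellum. In GTML tumours none of the 10 was called higher and 6 were called lower than the mean of the 3 Ptch1 models, Pcgf1 (-0.84) and Bcl6 (-1.0) among them, where 21.9% of all genes were called lower. With centred arrays 1 was higher and 3 were lower.

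Ldb1, the LIM-domain-binding scaffold, has 1 probe set (1452024_a_at). It read 9.10, 8.25, 8.89 and 8.69 in GTML tumours, 8.41 and 8.35 in EP tumours, 8.38 in the TF tumour, and 8.41, 9.21, 9.62, 8.98 and 8.95 in MERP tumours. Ptch1+/- tumours read 9.61, 9.34, 9.45 and 9.35, GNPs 8.90, 8.37 and 8.37, and adult cerebella 7.44, 7.63, 7.67 and 7.59. Ptch1+/- tumours were the highest group and adult cerebellum the lowest, with no overlap between Ptch1+/- and any CRISPR-Ptch1, GTML or GNP array. The rise over adult cerebellum was 2.22-fold in GTML (log2 1.15, adjusted p = 3.25e-05) and 1.74-fold in CRISPR-Ptch1 tumours (0.80, adjusted p = 0.00353). It was 2.74-fold in MERP (1.46, adjusted p = 7.09e-07), 3.63-fold in Ptch1+/- tumours (1.86, adjusted p = 4.76e-08) and 1.95-fold in GNPs (0.97, adjusted p = 5.95e-04). Relative to GNPs it rose in Ptch1+/- tumours (0.89 ± 0.21, SE, adjusted p = 0.00198), where 9.4% of all genes were called higher. It was not called in GTML (0.19), CRISPR-Ptch1 (-0.17) or MERP tumours (0.49). CRISPR-Ptch1 tumours were lower than Ptch1+/- tumours (-1.06 ± 0.21, SE, adjusted p = 5.32e-04). They were also lower than MERP tumours (-0.66 ± 0.20, SE, adjusted p = 0.0361); the second call was lost without any 1 of 6 of the 8 arrays.

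Among 16 LIM and Ldb1-associated genes the levels went both ways. Lhx2, a LIM-homeodomain factor, averaged 8.75 in GTML, 8.16 in CRISPR-Ptch1, 8.02 in MERP and 7.67 in Ptch1+/- tumours, against 5.14 in GNPs and 2.85 in adult cerebellum. It was called higher than in GNPs in all 4 tumour groups (log2 2.53 to 3.61). Lhx5, another member of that family, averaged 3.84 to 4.0 in the 4 tumour groups, against 7.65 in GNPs and 6.44 in adult cerebellum. Lhx1 separated the models, with 7.78 in GTML tumours against a mean of 11.44 over the 3 Ptch1 models (log2 -3.66, adjusted p = 5.45e-13). Of the 16, relative to GNPs, 3 rose and 7 fell in GTML, 3 rose and 4 fell in CRISPR-Ptch1, 2 rose and 6 fell in MERP and 2 rose and 6 fell in Ptch1+/- tumours. Over all genes, too, more fell than rose in each of these comparisons. Shares called higher and lower were 16.1% and 25.7% in GTML and 5.79% and 7.95% in CRISPR-Ptch1 tumours. They were 7.12% and 12.1% in MERP and 9.4% and 29.9% in Ptch1+/- tumours. With centred arrays the balance turned in GTML (7 and 4) and Ptch1+/- tumours (7 and 5) and was even in MERP tumours (5 and 5), while the calls named above for Lhx2, Lhx5 and Lhx1 held.

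The promoters of Smarca4, Bcor and Ldb1 are shown because these 3 were the members well above adult cerebellum in all 5 comparisons. Each window runs from 250 bases before to 50 bases after an annotated start in RefSeq (GRCm38.p6), 5′ to 3′ on the strand of the gene, with CG dinucleotides in capitals. Smarca4 lies at chr9:21615919-21616218 (plus strand), Bcor at chrX:12160297-12160596 (minus strand, 1 of 2 starts) and Ldb1 at chr19:46045262-46045561 (minus strand, 1 of 3 starts).
Smarca4: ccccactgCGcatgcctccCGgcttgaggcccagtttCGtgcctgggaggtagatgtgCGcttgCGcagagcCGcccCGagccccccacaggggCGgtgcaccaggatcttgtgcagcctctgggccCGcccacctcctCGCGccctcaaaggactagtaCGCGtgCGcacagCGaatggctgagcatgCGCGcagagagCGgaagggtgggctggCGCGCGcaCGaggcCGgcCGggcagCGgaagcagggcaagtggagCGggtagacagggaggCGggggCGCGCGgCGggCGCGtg
Bcor: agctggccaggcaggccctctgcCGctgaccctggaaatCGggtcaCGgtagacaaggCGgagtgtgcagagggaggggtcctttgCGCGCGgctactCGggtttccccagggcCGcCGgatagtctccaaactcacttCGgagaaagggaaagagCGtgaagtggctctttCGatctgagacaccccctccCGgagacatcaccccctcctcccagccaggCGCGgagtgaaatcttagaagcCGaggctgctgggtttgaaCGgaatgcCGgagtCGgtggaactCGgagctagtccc
Ldb1: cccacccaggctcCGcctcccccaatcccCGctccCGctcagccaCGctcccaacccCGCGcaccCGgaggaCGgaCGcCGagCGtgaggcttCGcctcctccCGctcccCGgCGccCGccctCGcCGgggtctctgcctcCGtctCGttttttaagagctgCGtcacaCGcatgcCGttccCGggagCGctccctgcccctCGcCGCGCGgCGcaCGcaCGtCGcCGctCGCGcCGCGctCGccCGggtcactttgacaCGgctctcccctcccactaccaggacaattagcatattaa
They hold 33, 21 and 41 CG dinucleotides, where the median over 32851 such windows was 7 and the upper quartile 20. Starts of all 9 genes were listed, and the first window of each held 21 to 56. The other Ldb1 windows, not shown, held 23 and 5, and the second windows of Bcor and Ctnnb1 held 21 and 51. The GLI motif TGGGTGGTC, read on both strands, was in no window of a member and in 0.253% of all windows. The E2F motifs TTTGGCGC and TTTCCCGC were in no member window and in 1.56% of all. The E-box CACGTG was in 1 window, that of Kdm6a, and in 7.15% of all. The array measures transcripts and gives no reading of these windows.

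Kmt2c (Mll3) and Kmt2d (Mll4), the related enhancer H3K4 methyltransferases, were the 2 members called higher than in GNPs in more than 1 tumour group. Kmt2c (1434179_at) read 10.30, 9.98, 10.46 and 10.31 in GTML tumours, 10.77 and 10.72 in EP tumours, 10.79 in the TF tumour, and 10.33, 10.66, 11.16, 10.40 and 10.58 in MERP tumours. Ptch1+/- arrays read 11.13, 11.17, 10.99 and 11.34, GNPs 10.54, 9.88 and 9.90, and adult cerebella 10.74, 10.61, 10.64 and 10.48. Ptch1+/- tumours were high, with the 3rd MERP tumour among them, and GTML tumours overlapped GNPs. Kmt2d (1435550_at) read 10.07, 9.49, 10.07 and 10.03 in GTML tumours, 9.25 and 9.28 in EP tumours, 9.07 in the TF tumour, and 8.91, 9.36, 9.97, 8.93 and 9.30 in MERP tumours. Ptch1+/- arrays read 10.13, 9.73, 10.06 and 10.15, GNPs 9.18, 8.36 and 8.23, and adult cerebella 9.42, 9.21, 9.20 and 9.06. Here GTML and Ptch1+/- tumours were both above every GNP and adult array.

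Relative to GNPs, Kmt2c rose 2.07-fold in Ptch1+/- (log2 1.05 ± 0.17, SE, adjusted p = 6.18e-05), 1.57-fold in CRISPR-Ptch1 (0.65 ± 0.19, adjusted p = 0.021) and 1.44-fold in MERP tumours (0.52 ± 0.17, adjusted p = 0.0314). It was not called in GTML tumours (0.16 ± 0.17). Kmt2d rose 2.50-fold in GTML (1.32 ± 0.23, SE, adjusted p = 8.08e-05), 2.69-fold in Ptch1+/- (1.43 ± 0.23, adjusted p = 4.33e-05) and 1.63-fold in MERP tumours (0.70 ± 0.22, adjusted p = 0.0269). In CRISPR-Ptch1 tumours the difference was 0.61 ± 0.25 and not called. Members called higher than in GNPs numbered 1 of 9 in GTML, 1 of 9 in CRISPR-Ptch1, 2 of 9 in MERP and 3 of 9 in Ptch1+/- tumours, where 16.1%, 5.79%, 7.12% and 9.4% of all genes were. The GNPs themselves were below adult cerebellum for both genes (Kmt2c -0.51, adjusted p = 0.0181; Kmt2d -0.64, adjusted p = 0.0251). The CRISPR-Ptch1 call for Kmt2c was lost without either EP 1, the TF tumour, GNP 2 or GNP 3. The MERP calls for both genes were lost without MERP 3, GNP 2 or GNP 3, and for Kmt2c also without MERP 2. The GNP calls against adult cerebellum were lost without GNP 2 or GNP 3, and for Kmt2d also without adult 1.

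Relative to adult cerebellum, Kmt2c rose in Ptch1+/- tumours alone (0.54, adjusted p = 0.0073), and Kmt2d rose in GTML (0.69, adjusted p = 0.0086) and Ptch1+/- tumours (0.79, adjusted p = 0.00311). Between models, Kmt2c and Kmt2d were lower in MERP than in Ptch1+/- tumours (-0.53, adjusted p = 0.011, and -0.72, adjusted p = 0.00842). Kmt2d was lower in CRISPR-Ptch1 than in Ptch1+/- tumours (-0.82, adjusted p = 0.00772). Kmt2c was lower in GTML tumours than in the mean of the 3 Ptch1 models (-0.58 ± 0.13, SE, adjusted p = 0.00114), while Kmt2d lay the other way at 0.41 and was not called. All 4 Kmt2c probe sets were higher in Ptch1+/- tumours than in GNPs (1.05 to 1.68) and than in adult cerebellum (0.54 to 1.05), and lower in MERP than in Ptch1+/- tumours (-1.42 to -0.53). Against GNPs only 2 of the 4 were called higher in CRISPR-Ptch1 tumours and 1 in MERP tumours. In GTML tumours 2 were called lower than the 3 Ptch1 models (range of the 4, -0.58 to 0.06). With the mean of the probe sets, Kmt2c lost its calls in CRISPR-Ptch1 and MERP tumours against GNPs. It also lost that of GTML tumours against the 3 Ptch1 models. The second Kmt2d probe set (1427555_at) stayed between 6.38 and 6.70 as a group mean and correlated with the first at r = 0.28.

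These 2 levels were set beside a sign of RNA quality. On this array Gapdh and beta-actin are read near both ends of their transcripts, and the mean difference of 3′ minus 5′ signal grows as RNA is shorter. This gap was 1.15, 1.1, 1.14 and 1.28 in GTML tumours, 0.19, 0.23 and 0.21 in CRISPR-Ptch1 and 0.43, 0.88, 1.71, 0.89 and 0.40 in MERP tumours. It was 0.99, 1.13, 1.25 and 1.53 in Ptch1+/- tumours, against 0.53, 0.31 and 0.35 in GNPs and 0.54, 0.52, 0.47 and 0.53 in adult cerebella. MERP 3, with the largest gap of all, had the highest Kmt2c, Kmt2d and Ldb1 of its group, and so had GNP 1, with the largest gap of the GNPs. Group means of Kmt2c were 11.16 in Ptch1+/- and 10.26 in GTML tumours, where gaps were large. They were 10.76 in CRISPR-Ptch1 tumours, where gaps were smallest, 10.63 in MERP tumours, 10.11 in GNPs and 10.62 in adult cerebellum. Those of Kmt2d were 10.02 in Ptch1+/-, 9.91 in GTML, 9.20 in CRISPR-Ptch1 and 9.29 in MERP tumours, 8.59 in GNPs and 9.22 in adult cerebellum. The part of RNA quality was not tested. The gap was also used as a covariate, a check added after the data were seen. Of the Kmt2c and Kmt2d rises over GNPs whose calls held, those in Ptch1+/- and GTML tumours were smaller. That of Kmt2c in CRISPR-Ptch1 tumours was larger, at 0.76 (adjusted p = 0.00135). In Ptch1+/- tumours Kmt2c was higher than in GNPs by 0.58 (adjusted p = 0.0378) and Kmt2d by 0.85 (adjusted p = 0.0266), and in GTML tumours Kmt2d by 0.79 (adjusted p = 0.0221). The calls against adult cerebellum were lost, with Kmt2d at 0.24 in GTML tumours and Kmt2c at 0.13 and Kmt2d at 0.30 in Ptch1+/- tumours. The MERP differences from GNPs fell to 0.26 for Kmt2c and 0.38 for Kmt2d, neither called. Between models, Kmt2d in CRISPR-Ptch1 minus Ptch1+/- tumours became -0.11 (adjusted p = 0.855), and the MERP differences from Ptch1+/- tumours became -0.32 for Kmt2c and -0.47 for Kmt2d, none of them called. Calls were gained as well, Kmt2c in GTML tumours at -0.72 against adult cerebellum and Kmt2d in CRISPR-Ptch1 tumours at 0.74 against GNPs. Kdm6a gained calls in GNPs against adult cerebellum (0.64, adjusted p = 0.0257) and in GTML tumours against GNPs (-0.96, adjusted p = 0.0214). Ldb1 gained 1 in GTML tumours against the mean of the 3 Ptch1 models (-0.47, adjusted p = 0.0229). The Ldb1 differences of CRISPR-Ptch1 from Ptch1+/- (-0.43) and from MERP tumours (-0.25) and of Ptch1+/- tumours from GNPs (0.37) were no longer called, and Ldb1 in GTML tumours stayed called against adult cerebellum at 0.74. Bcor (-0.37) and Ctnnb1 (-0.21) in Ptch1+/- tumours against GNPs, Ctnnb1 in CRISPR-Ptch1 minus Ptch1+/- tumours (0.26) and Ddx3x in CRISPR-Ptch1 tumours against adult cerebellum (0.23) also lost their calls.

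**Figure D2:**
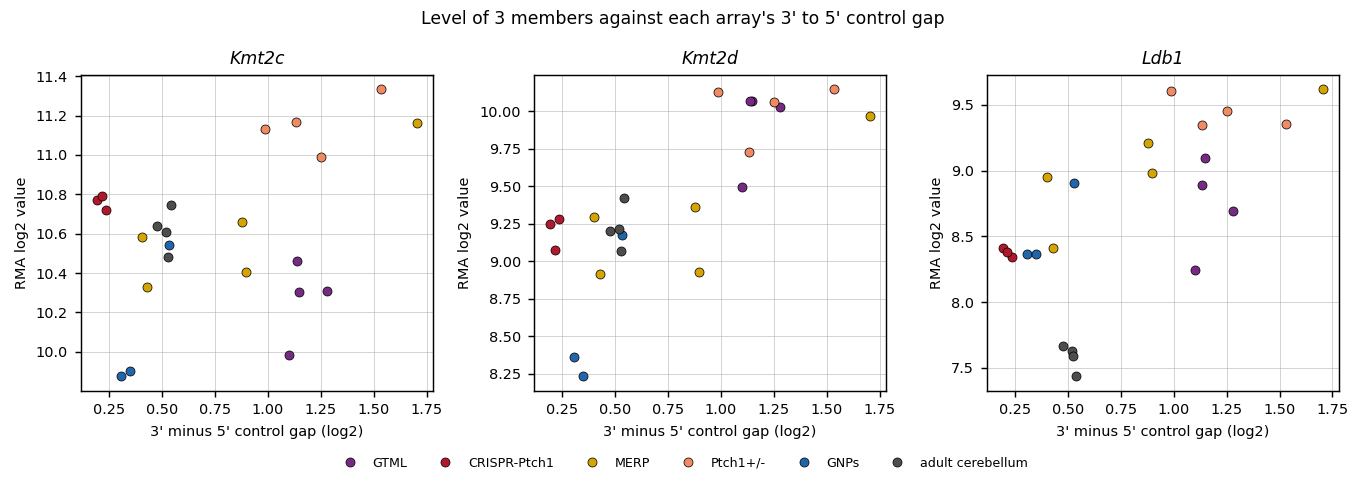
Levels of Kmt2c, Kmt2d and Ldb1 (RMA log2 value, y axis) against the mean 3′ minus 5′ gap of Gapdh and beta-actin (log2, x axis) on the 23 arrays, coloured by group. The 3 CRISPR-Ptch1 arrays have the smallest gaps, 0.19 to 0.23, and MERP 3 the largest, 1.71, together with the highest Kmt2c, Kmt2d and Ldb1 of the MERP tumours.

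Kdm6a (Utx), the X-linked H3K27 demethylase of the same complexes, varied widely within groups. Probe set 1427235_at read 8.34, 8.62, 9.40 and 9.46 in GTML tumours, 9.02 and 9.59 in EP tumours, 9.37 in the TF tumour, and 9.32, 10.08, 9.96, 9.07 and 9.51 in MERP tumours. Ptch1+/- arrays read 9.67, 9.77, 9.92 and 9.87, GNPs 9.58, 9.47 and 9.59, and adult cerebella 9.09, 8.94, 8.90 and 8.94. GTML arrays fell into a low and a high pair, whereas Ptch1+/- arrays all lay above all adult and GNP arrays. It rose relative to adult cerebellum in MERP (0.62 ± 0.21, SE, adjusted p = 0.0162) and Ptch1+/- tumours (0.84 ± 0.22, SE, adjusted p = 0.00295). With the control gap as a covariate neither was called, at 0.46 in MERP (adjusted p = 0.0872) and 0.50 in Ptch1+/- tumours (adjusted p = 0.165). It was lower in GTML tumours than in the mean of the 3 Ptch1 models (-0.62 ± 0.18, SE, adjusted p = 0.00933). GNPs (0.58, adjusted p = 0.0505), GTML (-0.01) and CRISPR-Ptch1 tumours (0.36) were not called against adult cerebellum. The other 3 Kdm6a probe sets correlated with it at r = -0.22 to 0.45. One of them, 1445198_at, averaged 8.09 ± 0.68 (SD) in Ptch1+/- tumours against 5.59 to 6.34 in all other groups. Another, 1427672_a_at, averaged 9.10 in GNPs, the lowest group, and 9.36 in adult cerebellum. Of the 4 probe sets, 1 was called higher than in adult cerebellum in MERP and 2 in Ptch1+/- tumours. Only 1 was called lower in GTML tumours than in the 3 Ptch1 models. That call and the MERP call were lost with the mean of the probe sets and with the probe set of highest SD.

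Kdm6a is known to escape X inactivation in females, and Xist, the RNA that coats the inactive X, split the arrays. Xist was at 11.74 or above in GTML 3 and 4, EP 2, all 5 MERP, Ptch1+/- 3 and all 3 GNP arrays, and at 7.90 or below in the others, all 4 adult arrays among them. The Y-linked gene Eif2s3y ran the opposite way in all groups except the GNPs, where both were high (Eif2s3y 9.43 to 9.86). In GTML tumours Kdm6a was 9.40 and 9.46 on the 2 arrays with high Xist and 8.34 and 8.62 on the other 2, and in EP tumours it was 9.59 with high Xist and 9.02 without. Ptch1+/- tumours showed little such split, with 9.92 on the array with high Xist and 9.67, 9.77 and 9.87 on the others. With Xist as a covariate the MERP difference from adult cerebellum fell to 0.10 (adjusted p = 0.747) and the Ptch1+/- difference was 0.76 and still called. All MERP arrays had high and all adult arrays low Xist, so Xist and group cannot be told apart there. The GTML difference from the mean of the 3 Ptch1 models was -0.68 and still called. Calls were gained for Ptch1+/- tumours against GNPs (0.63, adjusted p = 0.0359) and for MERP (-0.65, adjusted p = 0.0329) and CRISPR-Ptch1 (-0.53, adjusted p = 0.042) against Ptch1+/- tumours. Without the covariate, the GTML call was lost when GTML 1 or GTML 2 was left out. The MERP call against adult cerebellum was lost when MERP 2 was.

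**Figure D3:**
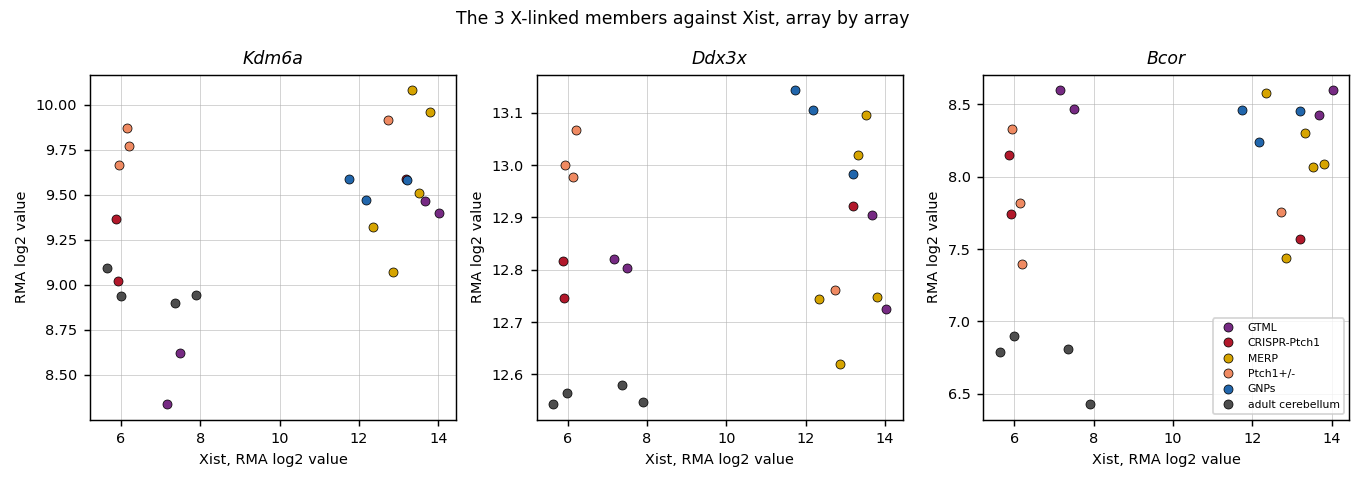
Levels of the 3 X-linked members Kdm6a, Ddx3x and Bcor (RMA log2 value, y axis) against Xist (RMA log2 value, x axis), with 1 point per array coloured by group. Xist is at 7.90 or below or at 11.74 or above on every array; the 2 GTML arrays with low Xist have Kdm6a at 8.34 and 8.62, and those with high Xist at 9.40 and 9.46.

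Of 15 further COMPASS-family genes, 10 rose in GTML, 8 in CRISPR-Ptch1, 9 in MERP and 12 in Ptch1+/- tumours and 8 in GNPs relative to adult cerebellum, and 1 fell in each. In the same order 27.3%, 26.4%, 30.8%, 22.4% and 29.1% of all genes were called higher. Called lower were 27.9%, 21.1%, 24.9%, 30.8% and 21%. The shared core subunits Ash2l and Wdr5 were among the COMPASS-family genes that rose. Ash2l was higher by 1.64 in GTML, 1.51 in CRISPR-Ptch1, 1.43 in MERP tumours and 1.34 in GNPs, and averaged 9.73 in Ptch1+/- tumours against 8.84 in adult cerebellum. Wdr5 was higher by 1.39, 1.25 and 1.46 in those tumours, 1.37 in Ptch1+/- tumours and 1.16 in GNPs. Pagr1a, a partner particular to the Kmt2c and Kmt2d complexes, was the 1 that fell, by 1.67 in GTML, 1.12 in CRISPR-Ptch1, 1.05 in MERP and 1.43 in Ptch1+/- tumours and 1.43 in GNPs. Kmt2a and Kmt2b, the methyltransferases of related complexes, were higher in Ptch1+/- tumours than in GNPs (1.20, adjusted p = 5.32e-04, and 1.19, adjusted p = 2.6e-04). They were lower in MERP than in Ptch1+/- tumours (-0.86 and -0.84) and in CRISPR-Ptch1 than in Ptch1+/- tumours (-0.88 and -1.13), the same pairs of groups that differed for Kmt2d. None of the 15 was called between CRISPR-Ptch1 or MERP tumours and GNPs; with centred arrays 8 were higher in MERP tumours and none differed in CRISPR-Ptch1 tumours.

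Crebbp (CBP), the histone acetyltransferase and transcriptional coactivator, was lowest in GTML tumours and adult cerebellum. Probe set 1435224_at read 9.92, 10.03, 10.36 and 10.36 in GTML tumours, 10.72 and 10.64 in EP tumours, 10.76 in the TF tumour, and 10.38, 10.61, 10.48, 10.38 and 10.67 in MERP tumours. Ptch1+/- arrays read 10.81, 10.59, 10.27 and 10.74, GNPs 10.97, 10.59 and 10.51, and adult cerebella 10.18, 10.02, 10.14 and 9.98. GTML arrays overlapped the adult ones, and the other groups did not. It rose relative to adult cerebellum in CRISPR-Ptch1 (0.63, adjusted p = 7.88e-04), MERP (0.43, adjusted p = 0.00571) and Ptch1+/- tumours (0.52, adjusted p = 0.00168) and GNPs (0.61, adjusted p = 8.95e-04). It did not pass in GTML tumours (0.09, interval -0.18 to 0.36). GTML tumours were lower than GNPs (-0.53, adjusted p = 0.00473) and than the mean of the 3 Ptch1 models (-0.44 ± 0.11, SE, adjusted p = 0.00213). The direction depended on the probe set. In MERP tumours against adult cerebellum, 1 of the 4 Crebbp probe sets was called higher and 3 lower, 1436983_at for example averaging 8.90 against 10.15. Its 4 probe sets correlated with each other at r = -0.25 to 0.77, so no single direction describes Crebbp here.

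Of 18 CBP partners and other acetyltransferases, 7 rose and 6 fell in GTML, 7 rose and 5 fell in CRISPR-Ptch1, 7 rose and 4 fell in MERP and 4 rose and 7 fell in Ptch1+/- tumours relative to adult cerebellum, with 6 up and 5 down in GNPs; with centred arrays the balance turned in Ptch1+/- tumours (9 up, 4 down) and GNPs (4 up, 9 down). On the deposited scale 27.3%, 26.4%, 30.8%, 22.4% and 29.1% of all genes were called higher in GTML, CRISPR-Ptch1, MERP and Ptch1+/- tumours and GNPs. In the same order 27.9%, 21.1%, 24.9%, 30.8% and 21% were called lower. Kat2b (PCAF) fell in all 5, by 1.36 in GTML, 1.43 in CRISPR-Ptch1, 1.51 in MERP and 1.24 in Ptch1+/- tumours and 1.45 in GNPs. Cited1, a CBP-binding transactivator, averaged 9.86 in GTML tumours against 6.82 over the 3 Ptch1 models (3.04, adjusted p = 2.44e-11).

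**Figure D4:**
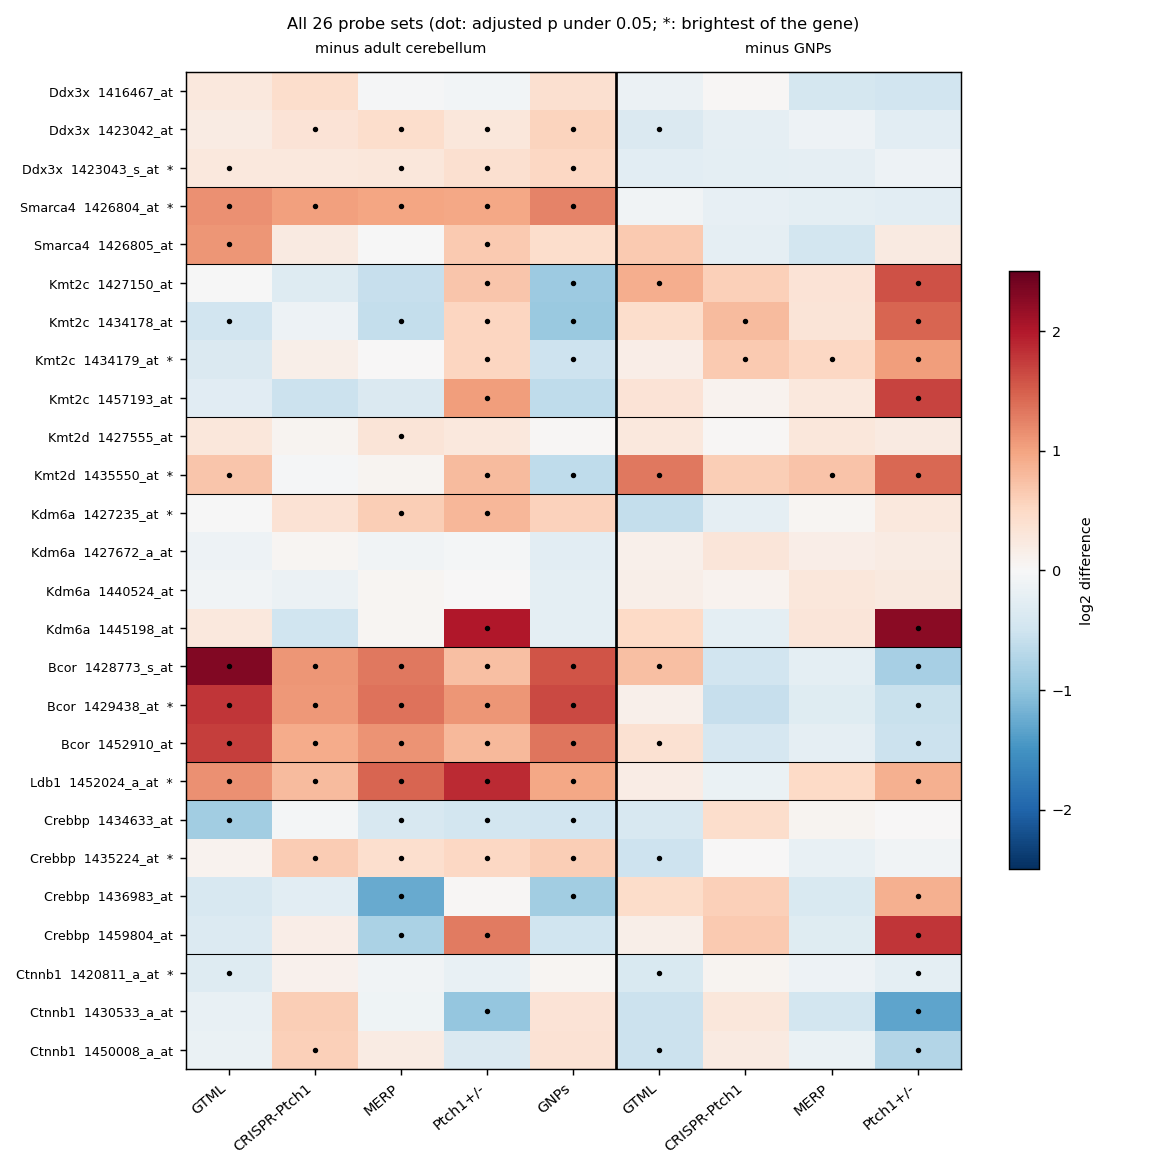
Log2 difference of each group from adult cerebellum (left block) and of each tumour group from GNPs (right block) for all 26 probe sets of the 9 genes, 1 row each; colour runs from blue (lower) to red (higher), dots mark an adjusted p under 0.05 over 34958 probe sets, and a star marks the brightest probe set of a gene. The 3 Bcor rows are red with a dot in all 5 columns of the left block, while the 4 Crebbp rows differ in sign.

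Ddx3x, an X-linked DEAD-box RNA helicase that acts in translation and messenger RNA handling, differed from adult cerebellum by small amounts. Probe set 1423043_s_at read 12.82, 12.80, 12.73 and 12.90 in GTML tumours, 12.75 and 12.92 in EP tumours, 12.82 in the TF tumour, and 12.74, 13.02, 12.75, 12.62 and 13.10 in MERP tumours. Ptch1+/- arrays read 13.00, 13.07, 12.76 and 12.98, GNPs 12.98, 13.11 and 13.14, and adult cerebella 12.54, 12.55, 12.58 and 12.56. On this probe set the 4 adult arrays lay between 12.54 and 12.58, below all others. The difference from adult cerebellum was 0.25 in GTML (adjusted p = 0.0366), 0.27 in CRISPR-Ptch1 (adjusted p = 0.0461), 0.29 in MERP (adjusted p = 0.014) and 0.39 in Ptch1+/- tumours (adjusted p = 0.00211) and 0.52 in GNPs (adjusted p = 3.58e-04). The CRISPR-Ptch1 call was lost without any 1 of its 7 arrays and the GTML call without any of 7 of its 8. With Xist as a covariate the GTML (0.27), CRISPR-Ptch1 (0.28) and MERP (0.31) differences were not called. No tumour group was called against GNPs (-0.26 to -0.13). Probe sets of this suffix can match more than 1 transcript, and the near-identical Y-linked copy Ddx3y was not among the genes measured here, so signals of the 2 copies may mix. Of the 3 Ddx3x probe sets, 1 was called higher than in adult cerebellum in GTML and CRISPR-Ptch1 tumours. In MERP and Ptch1+/- tumours and GNPs 2 were. On 1416467_at adult cerebellum averaged 10.64, above MERP (10.61) and Ptch1+/- tumours (10.57) and below the other groups.

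Ctnnb1 (beta-catenin), the transducer of Wnt signals and a link of cadherins to the cytoskeleton, was lowest in GTML tumours by its brightest probe set. It read (1420811_a_at) 13.06, 13.27, 13.36 and 13.23 in GTML tumours, 13.65 and 13.58 in EP tumours, 13.77 in the TF tumour, and 13.47, 13.54, 13.47, 13.35 and 13.52 in MERP tumours. Ptch1+/- arrays read 13.47, 13.32, 13.30 and 13.37, GNPs 13.65, 13.57 and 13.59, and adult cerebella 13.55, 13.55, 13.57 and 13.53. GTML arrays overlapped the MERP and Ptch1+/- arrays and lay below all CRISPR-Ptch1, GNP and adult arrays. GTML tumours were lower than adult cerebellum (-0.32, adjusted p = 0.00171), than GNPs (-0.37, adjusted p = 0.00147) and than the mean of the 3 Ptch1 models (-0.27, adjusted p = 0.00208), which is 1.25-fold, 1.29-fold and 1.21-fold. With centred arrays none of these was called, and the difference from GNPs was 0.06. Of the 3 probe sets, 1 was called lower in GTML tumours than in adult cerebellum, 2 than in GNPs and 1 than in the 3 Ptch1 models. On 1430533_a_at and 1450008_a_at Ptch1+/- tumours were the lowest group, at 7.37 and 10.63 against 8.15 and 10.82 in GTML tumours. CRISPR-Ptch1 tumours were higher than Ptch1+/- tumours (0.30 ± 0.09, SE, adjusted p = 0.00873), in all 3 probe sets (0.30 to 1.59), a call that was lost without the TF tumour. Ptch1+/- tumours were lower than GNPs (-0.24, adjusted p = 0.0324), also in all 3 probe sets (-1.31 to -0.24), though for the brightest the call was lost without any 1 of 6 of the 7 arrays. On centred arrays both directions turned, to -0.18 for CRISPR-Ptch1 minus Ptch1+/- (not called) and 0.30 for Ptch1+/- minus GNPs (called).

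Among 18 measured genes of beta-catenin signalling and adhesion, more fell than rose relative to GNPs, as was so over all genes. In counts, 1 rose and 10 fell in GTML, 0 rose and 4 fell in CRISPR-Ptch1, 1 rose and 5 fell in MERP and 2 rose and 9 fell in Ptch1+/- tumours. Over all genes 16.1% rose and 25.7% fell in GTML, 5.79% and 7.95% in CRISPR-Ptch1, 7.12% and 12.1% in MERP and 9.4% and 29.9% in Ptch1+/- tumours. The median of the 18 was -0.40, -0.06, -0.37 and -0.36 in that order, against -0.01, 0.00, 0.05 and -0.10 over all genes. With centred arrays 6 rose and 7 fell in GTML, 0 and 2 in CRISPR-Ptch1, 2 and 2 in MERP and 7 and 3 in Ptch1+/- tumours, so the balance turned in the last. Lef1, a transcription factor that beta-catenin binds, averaged 7.88 in GTML, 6.35 in CRISPR-Ptch1, 5.90 in MERP and 5.99 in Ptch1+/- tumours against 8.01 in GNPs. It was 1.80 higher in GTML tumours than in the mean of the 3 Ptch1 models (adjusted p = 7.3e-09). Tcf7l2, its relative, was 4.99 in GTML and 5.59 in Ptch1+/- tumours against 8.0 in GNPs. Jup (gamma-catenin), the close paralog of Ctnnb1, fell relative to adult cerebellum by 2.71 in GTML, 1.69 in CRISPR-Ptch1, 1.97 in MERP and 2.22 in Ptch1+/- tumours and by 1.61 in GNPs.

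**Figure D5:**
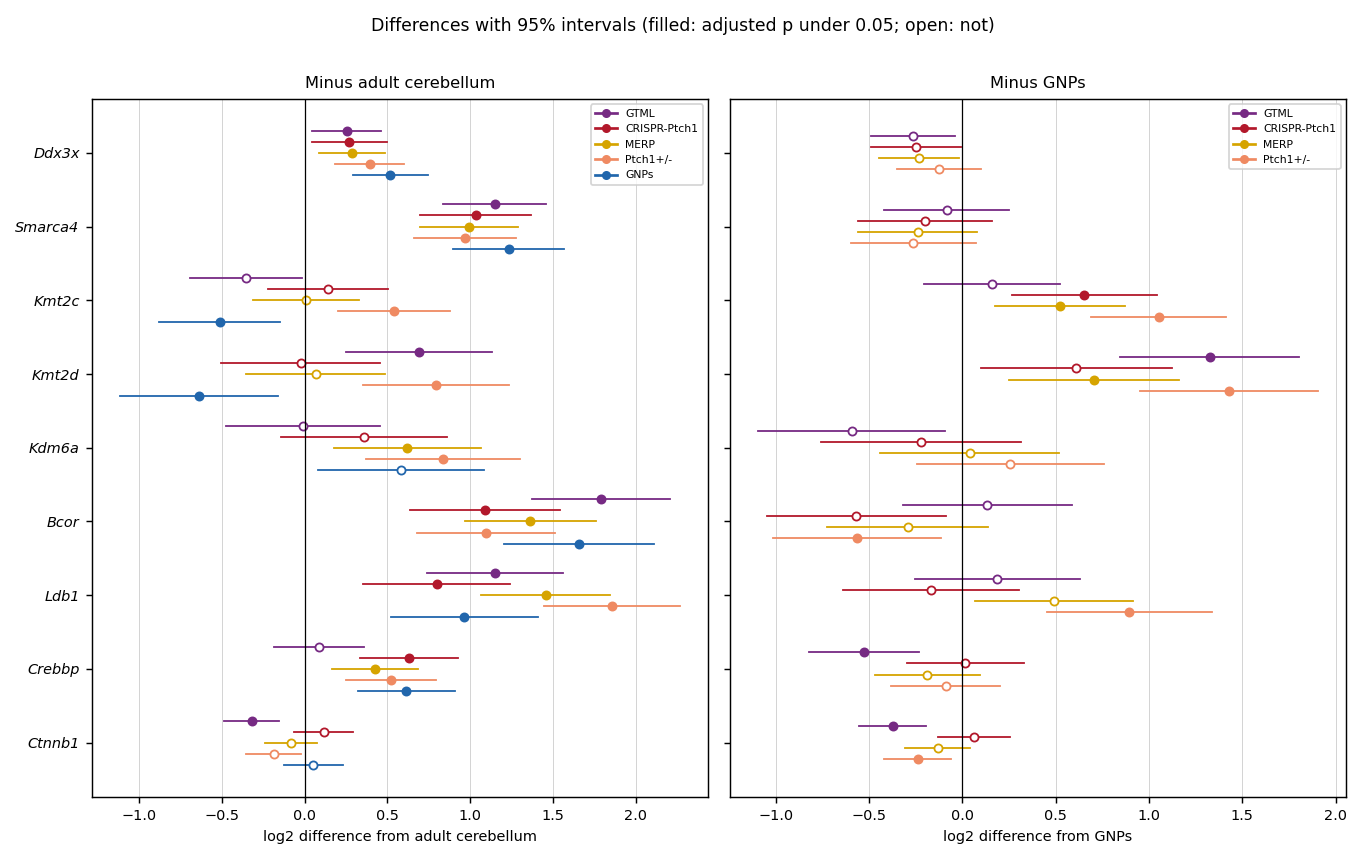
Log2 difference of each group from adult cerebellum (left) and of each tumour group from GNPs (right) for the 9 genes, with 95% intervals from limma; filled points have an adjusted p under 0.05. Smarca4, Bcor and Ldb1 are filled in all 5 groups on the left, and Kmt2c and Kmt2d carry the filled points above 0 on the right, with Ldb1 in Ptch1+/- tumours.

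Between tumour models, GTML differed from the mean of the 3 Ptch1 models in 5 of the 9 genes. Bcor was higher, and Kmt2c, Kdm6a, Crebbp and Ctnnb1 were lower, where 20.5% of all genes were called higher and 21.9% lower. The lower calls depended on the probe set. With the probe set of highest SD, 2 members were called higher and none lower. With the mean of the probe sets, Kmt2c, Kdm6a and Ctnnb1 lost their calls. CRISPR-Ptch1 and MERP tumours, both with an acquired loss of Ptch1, differed in Ldb1 alone (0 higher and 1 lower, with 8.2% and 5.15% of all genes). CRISPR-Ptch1 tumours differed from Ptch1+/- tumours in 3 (1 higher and 2 lower, with 28.5% and 8.33% of all genes), and MERP from Ptch1+/- tumours in 2, both lower (0 higher and 2 lower, with 25.9% and 6.08% of all genes). Against GNPs, members called lower were 2 of 9 in GTML (Crebbp and Ctnnb1), 0 in CRISPR-Ptch1, 0 in MERP and 2 of 9 in Ptch1+/- tumours (Bcor and Ctnnb1), where 25.7%, 7.95%, 12.1% and 29.9% of all genes were called lower. At an unadjusted p under 0.05, Ddx3x and Kdm6a were also lower in GTML, Ddx3x and Bcor in CRISPR-Ptch1 and Ddx3x in MERP tumours.

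The balance of calls over all genes rested on the scale. The median gene level differed between arrays by up to 0.67, and centring the arrays on it changed the share of called genes that were higher. That share was 78.2% centred against 38.6% as deposited for GTML minus GNPs, 79.0% against 37.1% for MERP minus GNPs and 80.5% against 23.9% for Ptch1+/- minus GNPs. It was 20.7% against 77.4% for CRISPR-Ptch1 minus Ptch1+/-, 22.96% against 61.4% for CRISPR-Ptch1 minus MERP and 40.4% against 81.0% for MERP minus Ptch1+/-. For the comparisons with adult cerebellum it was 62.9% against 49.4% in GTML, 43.2% against 55.6% in CRISPR-Ptch1 and 64.2% against 42.0% in Ptch1+/- tumours and 41.8% against 58.1% in GNPs, and for GTML minus the 3 Ptch1 models 64.3% against 48.3%. Smarca4, Bcor and Ldb1 were called higher than in adult cerebellum in all 5 comparisons on either scale, and Kmt2c and Kmt2d remained higher in Ptch1+/- tumours than in GNPs.

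In the order of group means, adjacent groups were not called apart for most steps. The steps called were those from adult cerebellum to the next group for Ddx3x (GTML), Smarca4 (Ptch1+/-), Bcor (CRISPR-Ptch1) and Ldb1 (CRISPR-Ptch1), from GTML to MERP tumours for Kmt2d (9.91 against 9.29, adjusted p = 0.0179), and between the same 2 groups for Crebbp (10.17 against 10.50, adjusted p = 0.0352). GTML minus MERP was called for 39.2% of all genes. Kmt2c had 2 steps with no overlap that were not called, CRISPR-Ptch1 against Ptch1+/- tumours (10.76 and 11.16, adjusted p = 0.0821) and GTML tumours against adult cerebellum (10.26 and 10.62, adjusted p = 0.0705).

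Genes whose levels ran most like a member over the 23 arrays are given as a description; all points share the same groups, which sets much of any such correlation. Bcor ran most like Zfp462 (r = 0.95) and Smarca4 most like B230308N11Rik, Pxdn and Mbtd1 (each 0.93), and these 2 members correlated with each other at 0.85. Ldb1 ran with Myo9b (0.96), Kmt2d with Ccnt2 (0.93), Kmt2c with Ogt (0.89), Kdm6a with Ctbp2 (0.87), Crebbp with Tmem176b (0.89), Ctnnb1 with Capn2 (0.90) and Ddx3x with Rbm33 (0.86). Kmt2c and Bcor went against each other at -0.30.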

How the data were processed

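Gene expression was measured in 16 mouse cerebellar tumours and 7 normal samples on Affymetrix mouse whole-genome arrays. The deposited values are log2 intensities that the authors made with RMA in Affymetrix Expression Console 1.3.1 (background correction, quantile normalisation and summarisation over all arrays together), so they hold no counts or depth, and the number of arrays limits the precision. RMA's normalisation assumes similar intensity distributions, and array medians over all 45101 probe sets lay between 6.00 and 6.17. Probe sets were named from GEO's platform annotation with symbols updated through gene identifiers: 34958 had 1 gene, 932 several and 9211 none. Each of the 18194 genes was read by its probe set with the highest mean. Groups came from the sample labels, with EP and TF pooled. The linear model of 6 groups used limma 3.58.1 (R 4.3.3), with moderated tests of each contrast, and p-values were adjusted over all genes by Benjamini-Hochberg, with a call at an adjusted p under 0.05. The fit was tested on simulated data. Alternatives were other scalings, other rules for the probe set, a filter on dim genes, robust and trend priors, only the compared groups, EP or TF alone, each array left out, a replicate block, Xist as a covariate and, added after seeing the data, the 3′ to 5′ control gap. All 9 members were named throughout, partner genes were those of largest called change per list, and likeness was Pearson's r over the 23 arrays. The members and lists were chosen with earlier results of these data known. Promoter windows came from RefSeq (GRCm38.p6).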

Additional observations from a re-analysis of the deposited data

Results flagged for a closer look

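One value stood far from the rest of its group. Kmt2d in the 2nd GTML tumour was 9.49, against 10.03 to 10.07 in the other 3 GTML tumours. It was the 1 such value among 36 group-wise tests of the 9 genes (groups of 4 or 5 arrays), where chance gives about 1 in 20. The control gap of this tumour was 1.1, the smallest of the 4 GTML tumours (1.1 to 1.28), and its Ldb1 (8.25) and Kmt2c (9.98) were also the lowest of the 4; the part of RNA quality in this was not tested. The GTML calls for Kmt2d against GNPs and adult cerebellum were kept with any 1 array left out.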

How the results depend on the processing

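Of the 54 calls among 117 member values, 54 were kept with dim genes left out, 54 with trend and robust priors, 53 after a second quantile normalisation, 47 with only the compared groups in the fit, 46 after centring the arrays, 39 with the mean of a gene's probe sets, 37 with the control gap as a covariate and 32 with the probe set of highest SD. When 1 array was left out, 403 of 455 calls were kept and none changed direction. Calls kept under every alternative and without any 1 array were those of Bcor against adult cerebellum in all 5 groups, Ldb1 in GTML, MERP and Ptch1+/- tumours and GNPs, Smarca4 in GTML and Ptch1+/- tumours and Crebbp in Ptch1+/- tumours against adult cerebellum, Kmt2d in GTML and Kmt2c and Kmt2d in Ptch1+/- tumours against GNPs, and Bcor in GTML tumours against the 3 Ptch1 models. A change of sign of a value called in neither setting was counted as no change. More calls were lost with another rule for the probe set or with the control gap as a covariate than with other priors. The gap differed between groups, and the part of RNA quality was not tested. The number of arrays was 3 to 5 a group.

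Centred arrays turned these log2 differences: against GNPs in Ptch1+/- tumours Ddx3x to 0.41, Crebbp to 0.45 and Ctnnb1 to 0.30, in GTML tumours Ctnnb1 to 0.061, and for CRISPR-Ptch1 against Ptch1+/- tumours Crebbp to -0.37 and Ctnnb1 to -0.18. The mean of the probe sets turned Crebbp, to -0.50 in MERP and -0.38 in GTML tumours and -0.30 in GNPs against adult cerebellum, and to 0.65 in Ptch1+/- tumours against GNPs. With the probe set of highest SD, Ddx3x became -0.078 in Ptch1+/- and -0.039 in MERP tumours and Smarca4 -0.011 in MERP tumours against adult cerebellum, and Smarca4 -0.68 for MERP against Ptch1+/- tumours. Crebbp then became -0.78 in MERP tumours and -0.49 in GNPs against adult cerebellum, 1.80 in Ptch1+/- and 0.14 in GTML tumours against GNPs, and -1.15 for CRISPR-Ptch1 against Ptch1+/- tumours. The cause was not tested, beyond the disagreement of the probe sets themselves.

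Counts of members called moved as follows, with the count in the report in parentheses. For CRISPR-Ptch1 against Ptch1+/- tumours (3) it was 7 with centred arrays, 5 with quantile normalisation, 5 with the mean of probe sets, 6 with the highest SD and 0 with the control gap. For MERP against Ptch1+/- tumours (2) it was 5 with centred arrays, 5 with the mean, 7 with the highest SD and 0 with the control gap. For CRISPR-Ptch1 against MERP tumours (1) it was 2 with the mean and 0 with only the compared groups, EP alone, TF alone or the control gap. For GTML against the 3 Ptch1 models (5) it was 2 with the highest SD, both higher, so that no lower call was left. Against GNPs, CRISPR-Ptch1 tumours (1) gave 0 with the mean, the highest SD, only the compared groups, EP alone or TF alone and 2 with the control gap; MERP tumours (2) gave 1 with the mean or the highest SD and 0 with only the compared groups or the control gap; Ptch1+/- tumours (5) gave 3 with only the compared groups and 2 with the control gap. Against adult cerebellum, CRISPR-Ptch1 tumours (5) gave 2 with the highest SD and 3 with TF alone, MERP tumours (6) 3 and GNPs (7) 3 with the highest SD, and Ptch1+/- tumours (8) 5 with the control gap. Without 1 array the counts ranged from 3 to 5 for GTML, 0 to 2 for CRISPR-Ptch1, 0 to 3 for MERP and 3 to 5 for Ptch1+/- against GNPs, and from 0 to 1 for CRISPR-Ptch1 against MERP tumours.

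Same-numbered samples did not deviate together: over 46 pairs of arrays the mean correlation of deviations was -0.01 (-0.28 to 0.23), so the numbers pair nothing. With the replicate number as a block (and no TF tumour), members called numbered 1 for MERP against GNPs, 1 for CRISPR-Ptch1 against Ptch1+/- tumours and 0 for CRISPR-Ptch1 against MERP tumours, and 46 of 54 calls were kept.

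Over all genes, counts called also moved by more than 1.5 times from the counts in parentheses. With centred arrays they were 11923 for GTML against GNPs (7603), 7854 for MERP against GNPs (3493), 11675 for Ptch1+/- against GNPs (7150), 10084 for CRISPR-Ptch1 against Ptch1+/- (6704) and 4115 for CRISPR-Ptch1 against MERP tumours (2428). With the control gap they were 3497, 1711 and 836 for the last 3. TF alone gave 1629 against GNPs (2500), 4315 against Ptch1+/- and 539 against MERP tumours; only the compared groups gave 1036 for CRISPR-Ptch1 against MERP tumours, and leaving out EP 1 or EP 2 gave 1109 or 1123 there.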
